A study of Mus musculus with 20 samples.

Results

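The core cardiac transcription factors are a small group of DNA-binding proteins that specify heart muscle and hold its gene programme in place. The 10 genes described here were taken by symbol from a deposited expression table of 26440 genes, namely Nkx2-5, Gata4, Gata6, Tbx5, Tbx20, Hand1, Hand2, Mef2a, Mef2c and Isl1. All 10 symbols were found, each as 1 row. In the embryo these factors bind one another and share enhancers of contractile genes. Isl1 marks progenitors of the second heart field, which add cells to the outflow tract, right ventricle and atria. GATA, NK2 homeobox, T-box and HAND proteins then set chamber identity, and MEF2 proteins drive the genes of the contractile apparatus.

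The libraries came from C57BL/6N mice with a myocardium-specific knockout of Creld1, labelled MyHC-Creld1 KO, and from wild-type mice of the same strain. Creld1 encodes a membrane protein with EGF-like domains that is linked to atrioventricular septation. The 6 groups were knockout ventricles and wild-type ventricles of postnatal day 3 (P3), knockout atria and wild-type atria of P3, and knockout and wild-type whole hearts of mid-gestation (E13.5). There were 3 libraries in each P3 group and 4 in each E13.5 group, 20 in all. The 6 pups came from 3 litters and each gave both its ventricles and its atria, and the embryos also came from 3 litters. Values are the authors' normalised signal per gene from SMART-Seq2 libraries, a full-length cDNA method for small amounts of RNA. The age of an animal and the dissection (a whole heart or 1 chamber type) changed together between the 2 stages, so these cannot be told apart. The preparation year went with them: all 12 P3 libraries and 2 of the 8 E13.5 libraries were prepared in 2018, and the other 6 in 2016. The deletion is described as specific to heart muscle, so Creld1 transcripts of the other cells of the heart are counted too, and whether the driver named in the label (MyHC) was active in every muscle cell was not tested.

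Several facts of the libraries bear on the results. The estimated totals ran between 5138313 and 20669494 counts per library, and between 18357 and 23457 genes were above 0. Creld1 signal was 19.9 to 59.3 in ventricle libraries labelled knockout, against 59.7 to 129.6 in those labelled wild-type. It overlapped between the labels in the other tissues, at 23.1 to 82.4 in knockout and 21.6 to 146 in wild-type atria, and at 4.64 to 70.9 in knockout and 34.0 to 92.2 in wild-type E13.5 hearts. The knockout and the wild-type atria numbered 3, which share a litter and a preparation date, stood apart together. Mitochondrially encoded genes made up 3.55% of the signal in knockout atria 3 and 10.4% in wild-type atria 3, while the other 4 atrial libraries held 22.6% to 31.3%. Wild-type atria 2 carried ventricular transcripts, with a summed signal of 16247 for 6 ventricular markers against 1702 and 2522 in the other wild-type atria. Cardiomyocyte markers (8 of 8) were above 0 in every group. The atrial results of Tbx20, Hand2, Mef2a, Isl1 and Gata4 are given with and without the third pair.

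Measured per kilobase of exon, Tbx20 had the highest signal of the 10 factors in all 6 groups. Tbx20 is a T-box repressor and activator needed for chamber growth. Its signal per kilobase averaged 275 ± 14.8 in knockout ventricles and 181 ± 16.8 in wild-type ventricles, 299.5 ± 135 in knockout atria and 327 ± 78.4 in wild-type atria, and 219 ± 42.9 in knockout and 178 ± 36.8 in wild-type E13.5 hearts (SD, n = 3 per P3 group and 4 per E13.5 group). Second place went to different genes. In ventricles it was Gata6 in knockouts, at 159 ± 6.65 per kilobase before Mef2a at 131 ± 22.4, and Mef2a in wild-type pups, at 159 ± 9.03 before Gata6 at 137 ± 6.31. In atria it was Tbx5 in knockouts, at 149.9 ± 17.7 before Gata6 at 143 ± 25.5, and Mef2a in wild-type pups, at 167 ± 36.1 before Tbx5 at 158 ± 48.3. The ranges of the neighbours overlapped in both atrial groups and in knockout ventricles, where Gata6 started at 152 and Mef2a reached 156. In wild-type ventricles they were separate, with Mef2a from 153 and Gata6 up to 143. At E13.5 it was Hand2, with 112 ± 10.6 per kilobase in knockout and 126 ± 28.1 in wild-type hearts, which overlapped the next gene in both genotypes, Mef2a at 98.6 ± 26.1 in knockouts and Gata6 at 121 ± 25.7 in wild-type embryos. Hand1 and Isl1 were lowest throughout. Exon lengths are those of the merged exons of GENCODE M21 and were applied equally to every library.

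**Figure D1:**
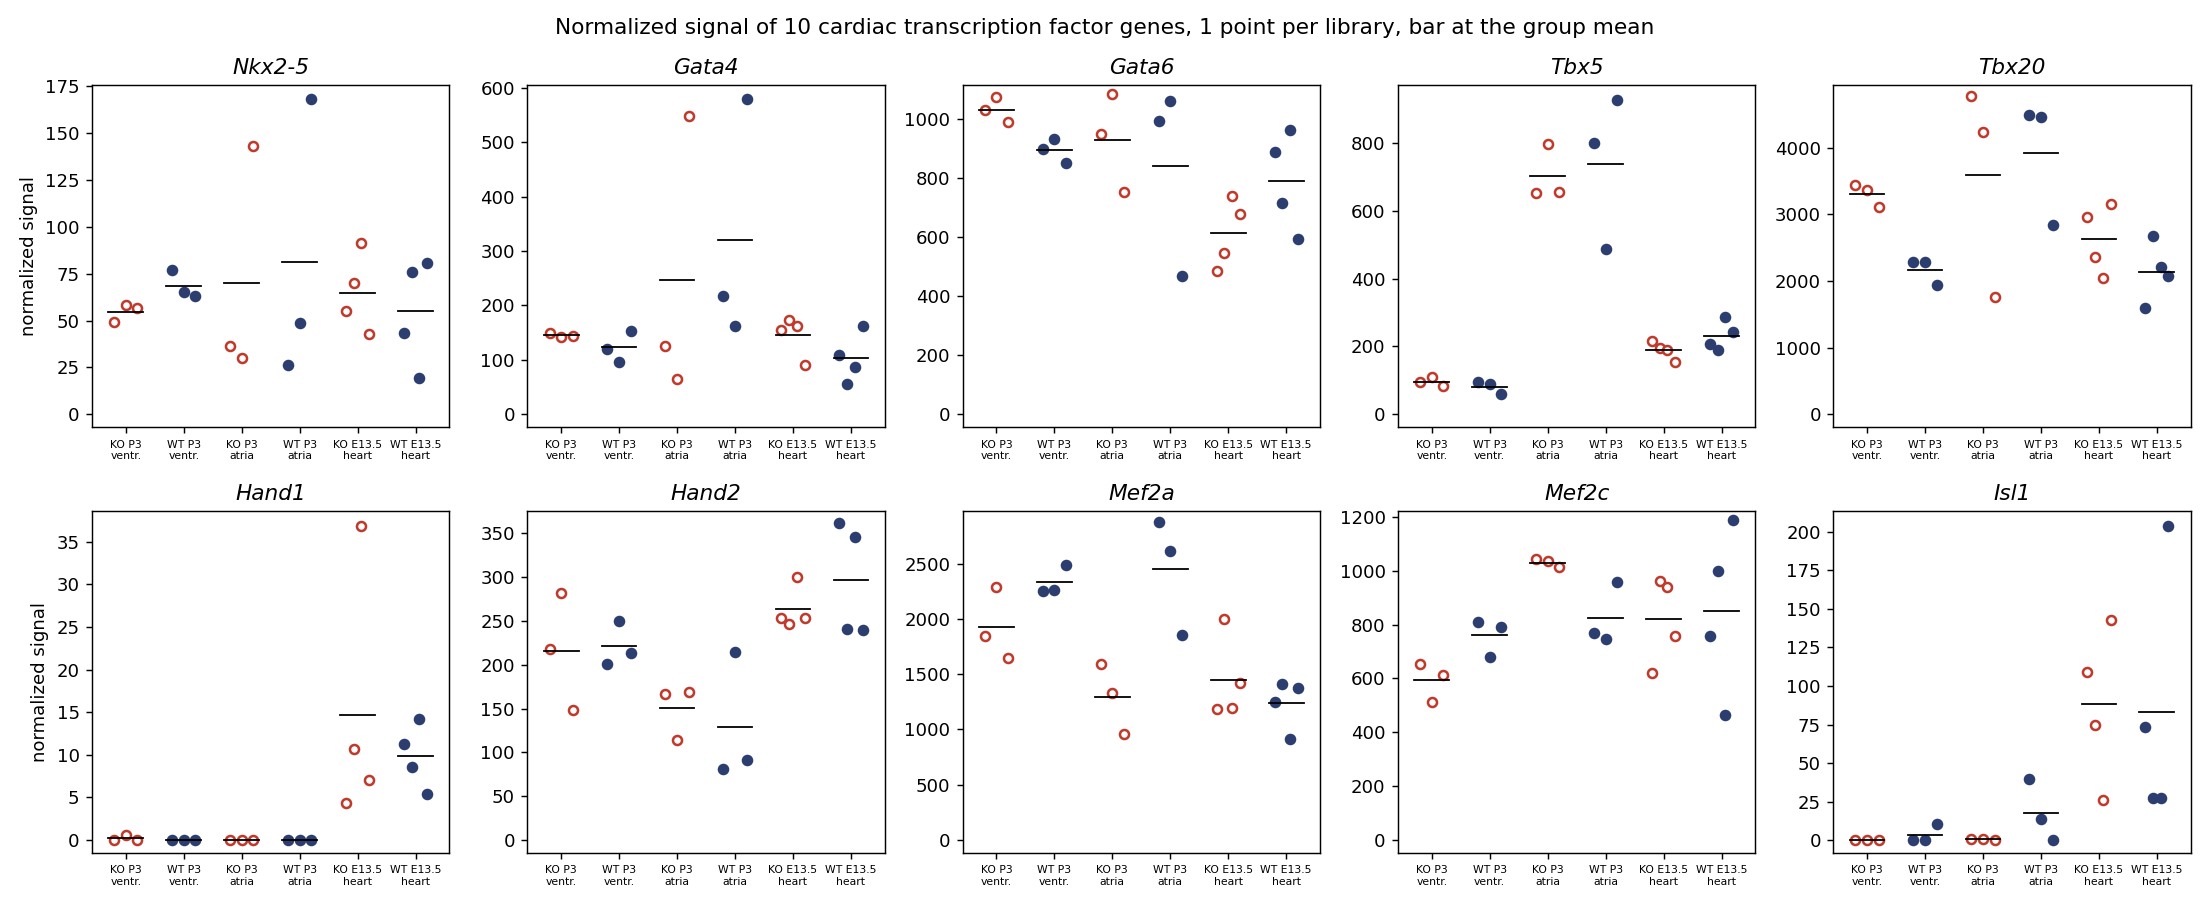
Normalised signal (vertical axis, authors' units) of each of the 10 factors in the 20 libraries, 1 panel per gene, with a point per library and a bar for the group mean. Groups run left to right as knockout and wild-type P3 ventricles, knockout and wild-type P3 atria, and knockout and wild-type E13.5 hearts; Tbx5 is high in the atria, Hand1 and Isl1 are at or near 0 at P3 apart from 3 wild-type libraries with Isl1, and the third atrial library of each genotype stands above the others for Nkx2-5 and Gata4.

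Promoter windows of 3 of the factors are shown because each of these genes differed between the stages in at least one genotype. The windows are RefSeq sequences of build GRCm38.p6, 250 bases before to 50 bases after a transcription start, written 5′ to 3′ on the strand of the gene. Capitals mark matches to the GATA motif (the letters GATAA, or with another last base GATAG, after an A or a T), the NKX motif (TNAAGTG), the T-box motif (AGGTGT) or the MEF2 motif, each searched on both strands. The E-box (CANNTG), the core bound by HAND and other bHLH proteins, was searched too but is left in lower case.
Hand2, chr8:57320733-57321032 (+): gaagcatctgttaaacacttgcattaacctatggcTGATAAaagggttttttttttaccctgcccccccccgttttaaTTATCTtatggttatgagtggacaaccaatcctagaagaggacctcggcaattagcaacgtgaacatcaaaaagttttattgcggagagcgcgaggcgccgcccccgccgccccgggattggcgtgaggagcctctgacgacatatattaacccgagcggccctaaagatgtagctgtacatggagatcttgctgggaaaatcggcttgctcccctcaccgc
Isl1, chr13:116309639-116309938 (-): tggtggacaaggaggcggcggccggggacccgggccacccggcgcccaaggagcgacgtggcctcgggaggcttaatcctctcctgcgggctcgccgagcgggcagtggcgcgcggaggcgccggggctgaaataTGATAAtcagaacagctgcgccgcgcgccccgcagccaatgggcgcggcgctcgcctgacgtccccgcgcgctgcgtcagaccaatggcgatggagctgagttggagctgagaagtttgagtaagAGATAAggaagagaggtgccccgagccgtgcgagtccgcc
Mef2a, chr7:67372809-67373108 (-): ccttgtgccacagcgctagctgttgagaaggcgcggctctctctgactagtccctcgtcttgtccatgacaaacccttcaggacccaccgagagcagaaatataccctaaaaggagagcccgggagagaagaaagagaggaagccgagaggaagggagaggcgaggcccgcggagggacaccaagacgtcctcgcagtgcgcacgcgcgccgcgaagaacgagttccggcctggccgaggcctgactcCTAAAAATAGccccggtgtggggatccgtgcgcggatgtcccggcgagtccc
The Hand2 window held 2 GATA matches, TGATAA at 215 bases before the start and, on the other strand, TTATCT at 172 bases before it. It also held 2 E-boxes. The Isl1 window held TGATAA 115 bases before the start, AGATAA at 11 bases after it and 1 E-box. The Mef2a window held a single MEF2 match, CTAAAAATAG, which began 2 bases before the start and ran across it. Each position given is that of the first base of a match. Among all 32851 promoter windows of the same length, 29.8% held a GATA match, 11.5% an NKX match, 13.7% a T-box match, 3.19% a MEF2 match and 72.3% an E-box. In all, 6 of the 10 factors had 8 windows in use. The Nkx2-5 window had 1 E-box and no other match, the Tbx20 window had none, 1 of the 3 Mef2c windows held a T-box match, and the other two held E-boxes. These matches describe letters and not binding.

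Tbx5 separated the chambers more than any other of the 10 factors. The gene lies on chromosome 5 (119832668 to 119885219, plus strand, mm10). It encodes the T-box factor that activates atrial and conduction genes together with Nkx2-5 and Gata4. Its signal was 94.5, 109 and 82.5 in knockout ventricles, against 651, 796 and 655 in knockout atria. In wild-type pups it was 96.6, 89.0 and 58.6 in ventricles, against 798, 488 and 927 in atria. No ventricle reached the lowest atrium in either genotype. Within pups, the log2 difference of ventricles minus atria was -2.87 in knockout pups (SE 0.38, adjusted p = 0.0347, limma on within-pup differences), which is 7.30-fold lower in ventricles. In wild-type pups it was -3.15 (SE 0.38, adjusted p = 0.0282), or 8.85-fold lower. Fold changes are on the log2(signal + 1) scale, and adjusted p-values are Benjamini-Hochberg values over all 18125 genes tested. Only 0.199% of all genes were called between the chambers of knockout pups and 0.0883% of those of wild-type pups, and Tbx5 was the 1 member called in each. The calls rest on 3 pups a genotype: leaving out any pup gave adjusted p-values of 0.143 to 0.350 in knockout and 0.104 to 0.311 in wild-type pups, with log2 differences of -2.92 to -2.81 and -3.50 to -2.74. They were also lost without the filter on low signal and without the variance trend.

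The E13.5 heart, which holds both chambers, lay between them for Tbx5. It had signals of 215, 195, 190.1 and 155 in knockout hearts and of 207, 189.8, 286 and 243 in wild-type hearts. Every P3 atrium was above every E13.5 heart and every P3 ventricle was below. P3 atria rose above E13.5 hearts by 1.89 in knockouts (SE 0.29, adjusted p = 0.000541) and by 1.63 in wild-type mice (SE 0.29, adjusted p = 0.00201). In wild-type P3 ventricles Tbx5 fell by 1.51 against E13.5 hearts (SE 0.29, adjusted p = 0.00303). For knockout ventricles the difference was -0.98 (SE 0.29, adjusted p = 0.0778), and the genotypes' differences were not shown to be unequal (log2 difference of effects 0.53, adjusted p = 1). The background of calls over all genes was 5.09% for wild-type ventricles against E13.5 hearts, 5.5% for wild-type atria, 2.74% for knockout ventricles and 2.8% for knockout atria. Against these, 4 of the 10 members were called in wild-type ventricles, 4 in wild-type atria, 2 in knockout ventricles and 3 in knockout atria. Each of these counts includes Hand1, whose call was fixed by the filter on low signal, so that of the other 9 members 3, 3, 1 and 2 were called. In bulk tissue, fewer cells of a type and less RNA per cell cannot be told apart, here and for every factor below.

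**Figure D2:**
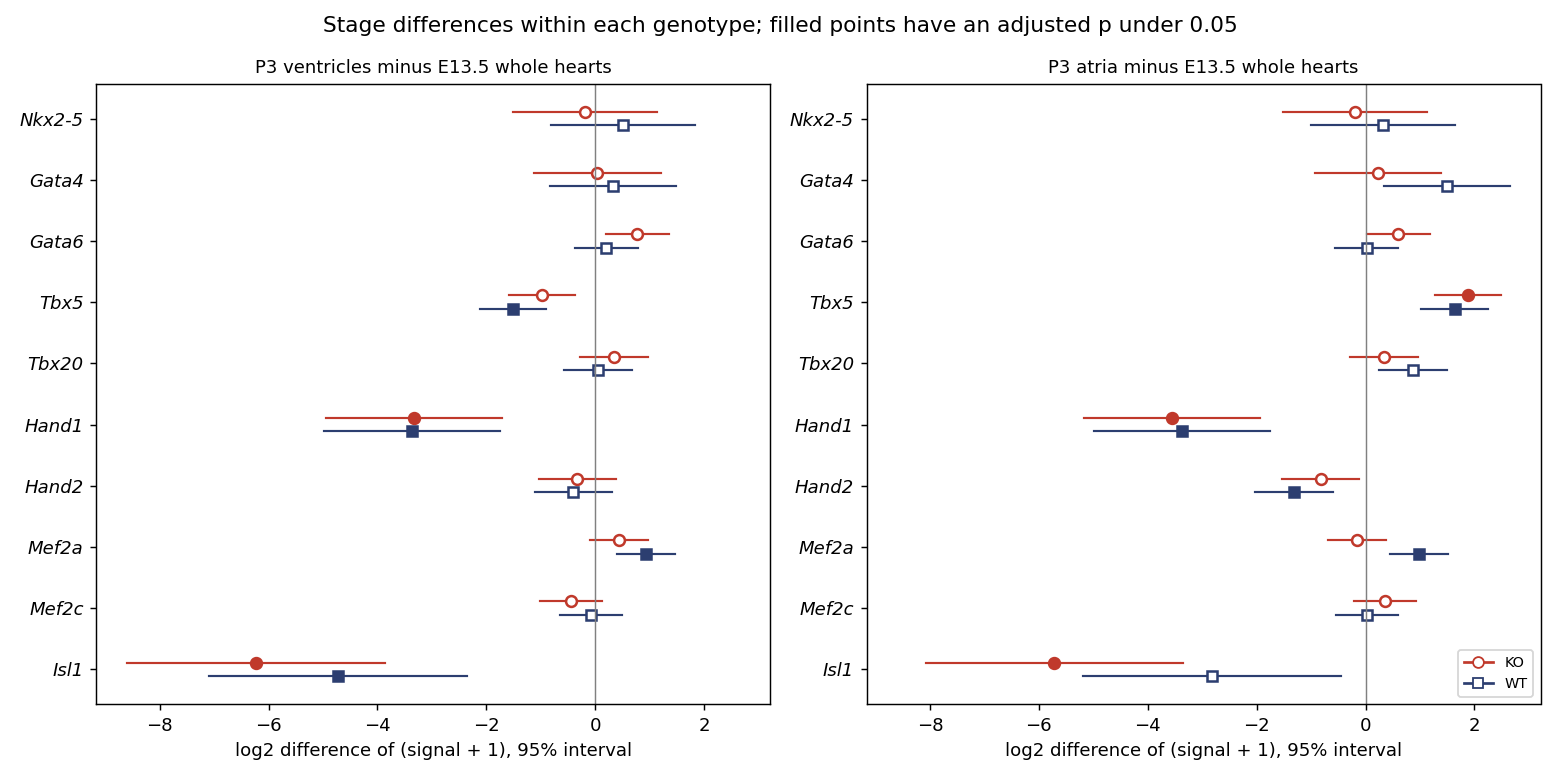
Log2 difference of P3 ventricles (left panel) and P3 atria (right panel) minus E13.5 hearts for each factor, on the log2(signal + 1) scale, with 95% intervals, knockout above wild-type in each pair. Filled points passed an adjusted p of 0.05; Tbx5 is above 0 in atria and below 0 in ventricles in both genotypes, at 1.89 and 1.63 in atria and -0.98 and -1.51 in ventricles.

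Tbx20, the second T-box factor, did not pass the test between the stages when all libraries were used. It lies on chromosome 9 (24718138 to 24774303, minus strand). Its signal was 4784, 4243 and 1752 in knockout atria and 4486, 4455 and 2842 in wild-type atria. In E13.5 hearts it was 2960.5, 2359.7, 2044 and 3148 in knockouts, against 1600.4, 2672, 2214 and 2069 in wild-type embryos. The first 2 atria of each genotype lay above every E13.5 heart, and the third knockout atrium lay below all 4 knockout hearts. With all libraries the atria minus E13.5 difference was 0.34 in knockouts (adjusted p = 0.643) and 0.87 in wild-type mice (SE 0.30, adjusted p = 0.0989). Without the third atrial pair, a choice made after the data were seen, it was 0.80 in knockouts (adjusted p = 0.0365) and 1.09 in wild-type mice (adjusted p = 0.00261), so both passed. Quantile normalisation also took the wild-type value past the threshold, at 1.19 (adjusted p = 0.00701). In ventricles Tbx20 had 3443, 3361 and 3103 in knockouts, against 2283, 2291 and 1938 in wild-type pups. The lowest knockout ventricle stood above the highest wild-type one, and the log2 difference was 0.61 (SE 0.32, 95% interval -0.06 to 1.28, adjusted p = 1). Between the chambers of a pup it was 0.00 in knockouts and -0.83 in wild-type pups (adjusted p = 1 and 0.490).

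Hand1 and Hand2, the bHLH factors of the heart, differed in how far they declined. Hand1 lies on chromosome 11 (57828705 to 57832818, minus strand) and is known from the embryonic left ventricle and outflow tract. Its signal at E13.5 was 4.36, 10.7, 36.8 and 7.02 in knockout hearts and 11.2, 8.53, 14.2 and 5.39 in wild-type hearts. At P3 it was listed at 0 in 11 of the 12 libraries, and 1 knockout ventricle had 0.599. Hand1 fell in all 4 stage comparisons, with adjusted p-values of 0.0195 for knockout ventricles, 0.0135 for knockout atria, 0.0120 for wild-type ventricles and 0.0126 for wild-type atria. The calls were lost in 5 of 14, 4 of 15, 4 of 14 and 1 of 15 alternatives, with adjusted p-values of up to 0.0988. Hand1 passed the filter on low signal only through the E13.5 libraries, so it had to differ between the stages and its calls are a description. No fold is given against groups listed at 0, and the fitted points of Hand1 and Isl1 in the plot of stage differences depend on the pseudocount and are no bound.

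Hand2 was present in every library. It lies on chromosome 8 (57320983 to 57324633, plus strand) and is known for second heart field and right ventricular growth. Its signal was 167, 115 and 169 in knockout atria, against 253, 246, 300.2 and 254 in knockout E13.5 hearts. It was 80.9, 215 and 91.0 in wild-type atria, against 362, 241, 346 and 239 in wild-type E13.5 hearts. All 6 atria lay below all E13.5 hearts. The change passed the test in wild-type mice, where Hand2 fell by 1.31 (SE 0.34, adjusted p = 0.0258), and the knockout value was -0.82 (adjusted p = 0.241). These 2 differences were not shown to be unequal (log2 difference of effects 0.49, SE 0.48, adjusted p = 0.999). The wild-type call was lost in 5 of 15 alternatives, among them without the third atrial pair, where the value was -1.14 (adjusted p = 0.0773). Without wild-type pup 2, whose atria carried ventricular transcripts and the highest atrial Hand2 signal, it was -1.75 (adjusted p = 0.00594). Ventricles had 218, 282 and 148 in knockout pups and 201, 249.8 and 213 in wild-type pups, which overlapped the E13.5 range.

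Hand2 shares 461 exon bases with Hand2os1, a long noncoding RNA on the opposite strand that starts near the same promoter. No source used here gives the strand rule of the counting, so reads in the shared bases cannot be assigned to either gene. Hand2os1 was the more abundant of the pair in signal not divided by length, at 794 to 1828 in knockout atria, 936 to 2625 in wild-type atria and 1886 to 3823 over all E13.5 hearts. It passed limma's test in none of the 4 stage comparisons, and 1 had an unadjusted p under 0.05. Its atria minus E13.5 value in knockouts was -1.07 (adjusted p = 0.129).

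Mef2a, a MADS-box factor that drives contractile and metabolic muscle genes after birth, was the member with the widest gap between the genotypes in atria among those present in every library. It lies on chromosome 7 (67231163 to 67372858, minus strand) and its promoter window, printed above, holds the MEF2 match. Its signal was 1595, 1333 and 959 in knockout atria, against 2879.6, 2612 and 1858 in wild-type atria. The 2 groups did not overlap. The log2 difference was -0.93 (SE 0.27, 95% interval -1.50 to -0.35), and with all 18125 genes tested the adjusted p was 0.553. With the litter pairs as a block the adjusted p was 0.0748, and without the third atrial pair the difference was -0.91 (adjusted p = 0.306). The gap did not pass the threshold in any of the 16 alternatives run, which gave -1.12 to -0.72. In ventricles Mef2a had 1844, 2285 and 1641 in knockouts, against 2252, 2262 and 2486 in wild-type pups, and in E13.5 hearts 1180.0, 1999.8, 1194 and 1418 in knockouts, against 1247, 1412, 912 and 1374 in wild-type embryos. The genotype difference in atria minus that in E13.5 hearts was -1.14 (SE 0.36, adjusted p = 0.851). Lysmd4, a gene on the opposite strand that shares 302 exon bases with Mef2a, had signals of 18.4 to 163 over the 20 libraries.

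In wild-type mice Mef2a was higher in the P3 chambers than in E13.5 hearts. Wild-type atria were above E13.5 hearts by 0.98 (SE 0.26, adjusted p = 0.0263) and wild-type ventricles by 0.93 (SE 0.26, adjusted p = 0.0359). In knockouts the values were -0.16 for atria (adjusted p = 0.833) and 0.43 for ventricles (adjusted p = 0.488). For ventricles the log2 difference of effects between the genotypes was -0.50 and was not called. The wild-type calls lay close to the threshold: the atrial one was lost in 7 of 15 alternatives and the ventricular one in 11 of 14, with log2 values of 0.84 to 1.21 and 0.80 to 1.01. Without the third atrial pair the atrial value was 0.04 in knockouts (adjusted p = 0.971) and 1.17 in wild-type mice (adjusted p = 0.00379).

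Mef2c, the MEF2 protein of the anterior heart field and early myocardium, lies on chromosome 13 (83504034 to 83667080, plus strand). It was called by limma in no comparison, and 1 of 12 had an unadjusted p under 0.05. Its signal was 653, 513 and 613 in knockout ventricles, against 809, 681 and 793 in wild-type ventricles, and 1044, 1035 and 1014 in knockout atria, against 768, 748 and 959 in wild-type atria. So the genotype groups were separate in both chambers, with knockouts lower in ventricles and higher in atria. The log2 differences were -0.36 (SE 0.29) and 0.33 (SE 0.29), both with an adjusted p of 1. The test of one against the other, within pups, gave -0.69 (adjusted p = 1). E13.5 hearts had 619, 964, 938 and 759 in knockouts and 758, 999, 466 and 1188 in wild-type embryos, with no separation.

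Isl1, the LIM-homeodomain factor of second heart field progenitors that persists in the sinus node and in cardiac neurons, was present in every E13.5 heart and at or near 0 in 9 of the 12 P3 libraries. It lies on chromosome 13 (116298281 to 116309689, minus strand). Its signal at E13.5 was 109, 74.9, 25.8 and 143 in knockout hearts and 73.3, 27.5, 27.0 and 204 in wild-type hearts. In ventricles it was listed at 0 in all 3 knockouts and in 2 of 3 wild-type pups, the third having 10.2. In atria it was 0.525, 0.932 and 0 in knockouts, against 39.8, 13.49 and 0 in wild-type pups. The fall against E13.5 hearts passed the test in knockout ventricles (adjusted p = 0.00283), knockout atria (adjusted p = 0.00603) and wild-type ventricles (adjusted p = 0.0157), and not in wild-type atria (adjusted p = 0.169). The atrial differences of the genotypes were not shown to be unequal (log2 difference of effects -2.90, SE 1.61, adjusted p = 0.999). Without the third atrial pair the adjusted p was 0.00689 in knockout atria and 0.582 in wild-type atria. The knockout calls held in every alternative that tested the gene, and the wild-type ventricular one was lost in 5 of 14.

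Some markers of tissue other than chamber muscle moved between the stages in the same libraries. Of 6 outflow tract and second heart field genes tested, 2 were called lower in each of the 4 stage comparisons. The 6 include the members Isl1, Hand2 and Mef2c. A member, Isl1 or Hand2, was among the calls in each comparison. The share of all genes called was 2.74% in knockout and 5.09% in wild-type ventricles, and 2.8% in knockout and 5.5% in wild-type atria. Rspo3, a Wnt signalling ligand on that list, was called in all 4 (adjusted p = 0.0386 in knockout and 0.0415 in wild-type ventricles, 1.23e-06 in knockout and 0.000298 in wild-type atria) and was listed at 0 in all 3 knockout atria. The summed signal of the list was 1019 to 1230 in knockout ventricles, 1264 to 1357 in wild-type ventricles, 1223 to 1373 in knockout atria and 1143 to 1272 in wild-type atria, against 1291 to 1888 in knockout and 1378 to 2313 in wild-type E13.5 hearts. Sema3c and Fgf10, also on the list, were called in none of the 4. Sema3c differed by -0.05 in knockout and -0.01 in wild-type ventricles. In atria it differed by -1.65 in knockouts (adjusted p = 0.0534) and -0.22 in wild-type mice. Members make up a large part of the sums of the list. In knockout ventricles Mef2c averaged 593 and Hand2 216, beside a median sum of 1041. Gap43, a gene of growing axons on the autonomic neuron list, fell by 2.54 in knockout ventricles (adjusted p = 0.019) and by 2.44 in knockout atria (adjusted p = 0.0259). In wild-type mice it was not called, at -1.62 in ventricles (adjusted p = 0.134) and -0.59 in atria (adjusted p = 0.644). Dbh, on the same list, went the other way in all 4 stage comparisons. It was called in wild-type atria, at 5.09 (adjusted p = 0.00691). Shox2 and Vsnl1, sinus node markers, were called lower in ventricles of both genotypes and in atria of neither. In ventricles Shox2 had adjusted p-values of 0.00623 in knockouts and 0.0356 in wild-type mice, and Vsnl1 of 0.000232 and 2.3e-05. Tbx3, another sinus node marker, was not called, at 1.07 in knockout and 0.18 in wild-type ventricles. Epcam, an epithelial gene, was listed at 0 in all 6 ventricles, against 9.97 to 111 in knockout and 0 to 135 in wild-type E13.5 hearts, and was called in knockout ventricles (adjusted p = 0.0339). The part of such tissue in the Isl1 and Hand1 values was not tested.

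The atrial genotypes differed for Isl1 in 2 of the 3 pairs, with the third pair at 0 in both. The difference of -2.55 on the log2(signal + 1) scale (SE 1.21, adjusted p = 0.934) did not pass the test and ranged between -4.08 and -1.12 over the alternatives. Without the third pair it was -3.82 (adjusted p = 0.400). Sinus node genes varied in the same libraries. Shox2, a sinus node transcription factor, had signals of 28.6, 26.6 and 47.9 in knockout atria and 153, 72.0 and 105 in wild-type atria (log2 difference -1.63, adjusted p = 0.997). Hcn4, the pacemaker channel, had 47.2, 77.7 and 38.3 in knockout atria and 216, 22.1 and 88.1 in wild-type atria. All 8 sinus node markers summed to 858 to 1150 in knockout atria and 942 to 1622 in wild-type atria. How much sinus node tissue each dissection held was not tested. The fibroblast markers summed to 62053 to 64755 in knockout atria and 83123 to 89489 in wild-type atria. Of these 10 markers 1, Lum, was called lower in knockouts, and 4 had an unadjusted p under 0.05. Over all genes 0.0276% were called between the atrial genotypes. Other marker sums also differed between the atrial genotypes. Blood markers (limma called 0 of 7, with 5 at an unadjusted p under 0.05) summed to 31054 to 133128 in knockout atria and 15580.2 to 18811 in wild-type atria. Smooth muscle and pericyte markers (0 of 7 called, 4 at an unadjusted p under 0.05) summed to 5489.8 to 11945.5 in knockout and 1622.5 to 6338 in wild-type atria. The 4 did not share a direction. Log2 differences were 1.66 for Acta2, 1.64 for Tagln and 2.80 for Cnn1, and -4.99 for Myh11. Proliferation markers (7 genes, 3 at an unadjusted p under 0.05) summed to 5016 to 9898 in knockout and 3374 to 6036 in wild-type atria. Of them 1, Birc5, was called higher in knockouts by 1.502 on the log2 scale (adjusted p = 0.0374). The part of any of these in the Mef2a and Isl1 differences was not tested.

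Nkx2-5, Gata4 and Gata6, which form the common core of the network in embryo and newborn, passed limma's test in none of the 12 comparisons. At an unadjusted p under 0.05 there were 0 comparisons for Nkx2-5, 1 for Gata4 and 2 for Gata6. Nkx2-5, the NK2 homeobox factor, lies on chromosome 17 (26838664 to 26845009, minus strand), Gata4 on chromosome 14 (63198922 to 63271692, minus strand) and Gata6 on chromosome 18 (11052064 to 11085635, plus strand). Nkx2-5 had signals of 49.3, 58.3 and 56.6 in knockout ventricles, against 77.1, 65.4 and 63.1 in wild-type ventricles. At E13.5 it had 55.0, 70.0, 91.4 and 42.8 in knockout hearts and 43.3, 76.1, 19.5 and 80.7 in wild-type hearts. The ventricles of both genotypes thus lay within the wider range of the E13.5 hearts. In ventricles every knockout lay below every wild-type library, yet the log2 difference of -0.32 had a 95% interval of -1.73 to 1.10.

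The atria showed another pattern for Nkx2-5 and Gata4, tied to the third pair. Nkx2-5 was 36.5, 29.9 and 143 in knockout atria and 26.2, 48.7 and 168 in wild-type atria. Gata4 was 126, 65.5 and 548 in knockout atria and 217, 163 and 579 in wild-type atria. The third library of each genotype was several times the others. Set against the mean of replicates 1 and 2 on the log2 scale, it differed by 2.08 in knockouts and 2.203 in wild-type pups for Nkx2-5 and by 2.58 and 1.62 for Gata4, while the median of all genes was 0.21 and 0.26. For Gata6 the same difference was -0.43 and -1.13, and for Tbx20 -1.36 and -0.65. These 2 libraries also had the lowest mitochondrially encoded share of the signal among the atria, and the part of that share in the pattern was not tested. Gata4 atria minus E13.5 was 0.23 in knockouts (adjusted p = 0.896) and 1.49 in wild-type mice (adjusted p = 0.133), and without the third pair -0.63 and 0.95.

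**Figure D3:**
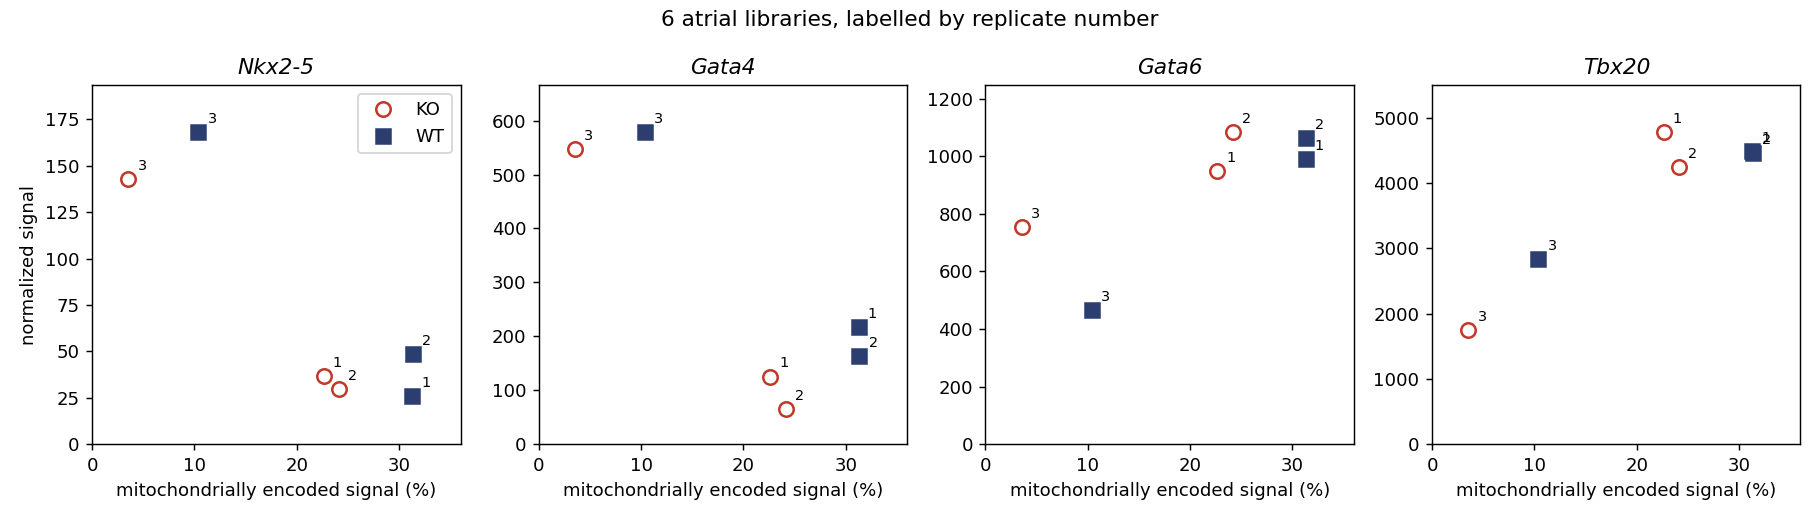
Signal of Nkx2-5, Gata4, Gata6 and Tbx20 (vertical axis, authors' units) against the percentage of signal from mitochondrially encoded genes (horizontal axis) in the 6 P3 atrial libraries, knockout and wild-type. The third library of each genotype, at 3.55% and 10.4%, holds the highest Nkx2-5 and Gata4 signal and the lowest Gata6 and Tbx20 signal of its genotype.

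Gata6 is the other GATA gene of the group and is known from the outflow tract as well as the chambers. Its signal was 1029.5, 1076 and 989 in knockout ventricles, against 899, 932 and 851 in wild-type ventricles. In E13.5 hearts it was 486, 547, 739 and 679.7 in knockouts, against 889, 716, 963 and 593 in wild-type embryos. Knockout ventricles were thus above every knockout E13.5 heart, with a log2 difference of 0.77 (SE 0.28, adjusted p = 0.160), while the wild-type difference was 0.20 (adjusted p = 0.791). The contrast of these 2 differences was 0.57 (adjusted p = 1). Gata4 in ventricles had 149.9, 142 and 143 in knockouts and 120.1, 96.3 and 154 in wild-type pups, close to its E13.5 signals of 154, 174, 161 and 90.9 in knockouts and 109.6, 56.1, 87.6 and 162 in wild-type embryos.

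Between knockout and wild-type mice, limma called none of the 10 factors in any tissue. At an unadjusted p under 0.05 there were 0 members in ventricles, 2 in atria (Mef2a and Isl1) and 0 in E13.5 hearts. Over all genes 0% were called in ventricles, 0.0276% in atria and 0% in E13.5 hearts. These correspond to 0, 5 and 0 genes, beside 707, 964 and 747 genes at an unadjusted p under 0.05, and with litter pairs as a block 30 genes were called in atria. Non-overlapping groups were seen for 4 members in ventricles (Nkx2-5 and Mef2c lower, Gata6 and Tbx20 higher in knockouts), for Mef2a and Mef2c in atria and for 0 in E13.5 hearts. The share of all genes with non-overlapping groups was 10.5% in ventricles, 7.91% in atria and 2.54% in E13.5 hearts. Tests of the genotype effect between tissues called 0 members against E13.5 hearts, for ventricles (0% of all genes) and for atria (0.00552%), and 0 between ventricles and atria (0%). At an unadjusted p under 0.05 these held 0, 1 (Mef2a) and 0 members and 729, 904 and 469 genes. The 95% intervals differed in width between the members. In ventricles that for Gata6 was -0.41 to 0.82 and that for Nkx2-5 was -1.73 to 1.10. In atria that for Tbx5 was -0.68 to 0.62 and that for Gata4 was -1.96 to 0.52, while that for Isl1, at -5.08 to -0.02, bounded little.

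**Figure D4:**
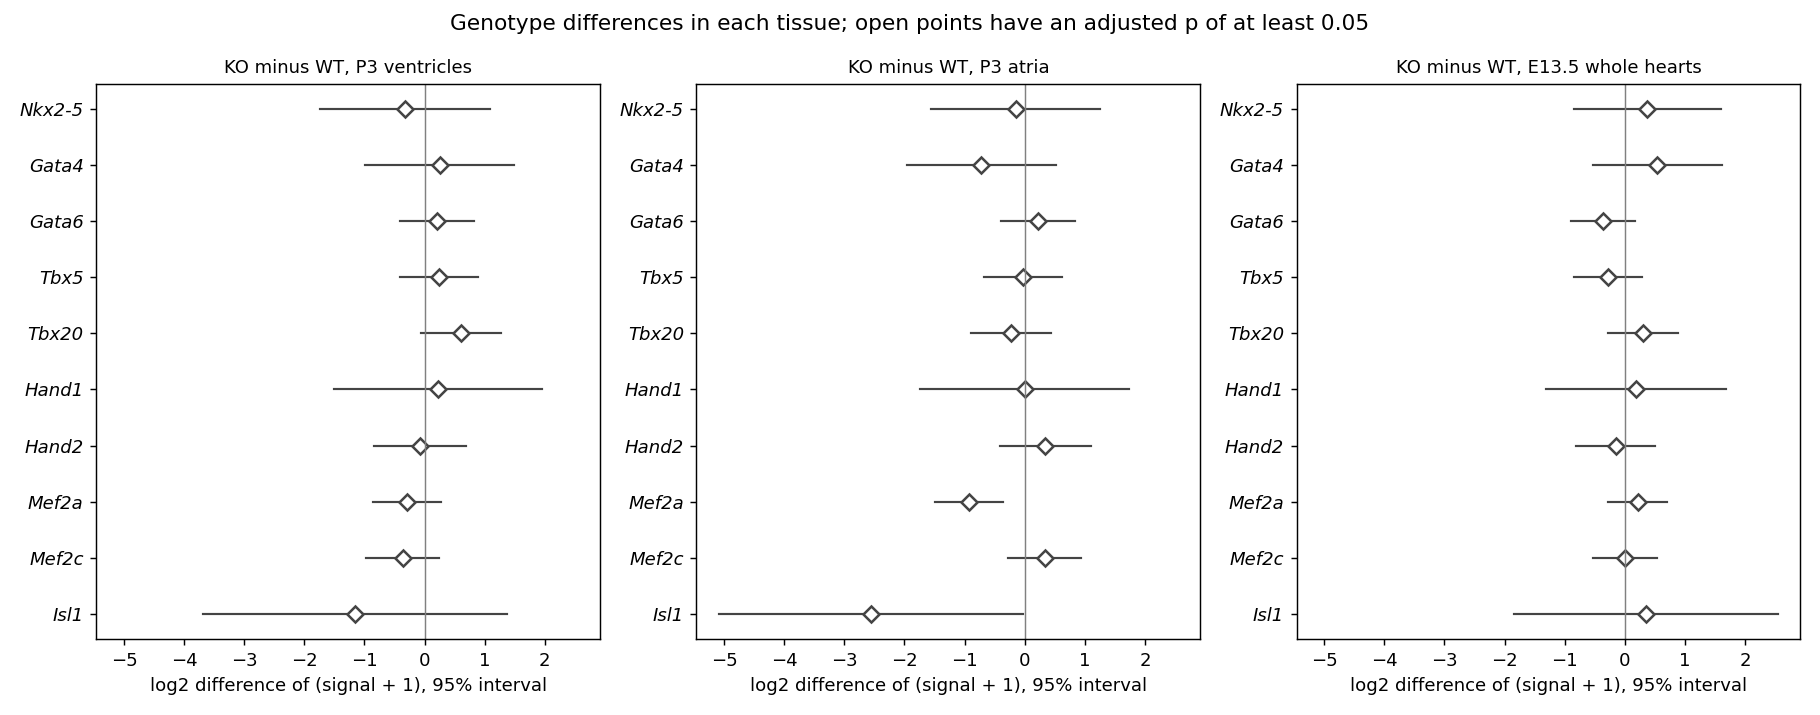
Log2 difference of knockout minus wild-type for each factor in P3 ventricles, P3 atria and E13.5 hearts, on the log2(signal + 1) scale, with 95% intervals. No factor passed an adjusted p of 0.05; Mef2a in atria, at -0.93, has an interval that ends at -0.35.

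Of 30 partners and paralogs of the 10 factors, 25 were tested. Against E13.5 hearts, ventricles had 1 call higher and 0 lower in knockouts and 1 higher and 2 lower in wild-type mice, and atria had 0 higher and 2 lower in each genotype, with all libraries used. These are 4% of the 25 in knockout ventricles (2.74% of all genes), 12% in wild-type ventricles (5.09%), and 8% in knockout atria (2.8%) and wild-type atria (5.5%). The genes called in atria were Hey2 and Irx4, the transcription factors of ventricular identity: Hey2 differed by -4.57 in knockouts and -3.86 in wild-type mice, and Irx4 was listed at 0 in all 3 knockout atria and in 2 of 3 wild-type atria. Smyd1, a muscle methyltransferase, rose by 0.81 in knockout ventricles (adjusted p = 0.037) and by 0.81 in wild-type ventricles (adjusted p = 0.0239). Tbx18, a T-box factor of epicardium and sinus horns, fell by 1.33 in wild-type ventricles (adjusted p = 0.0235). Gata5, the third GATA gene of the heart, had signals of 11.3, 0 and 0 in wild-type ventricles, against 35.7, 93.4, 55.2 and 77.9 in wild-type E13.5 hearts (adjusted p = 0.0049). The median of the list in wild-type mice was -0.075 in ventricles beside 0.000 for all genes, and 0.309 in atria beside 0.092. Between the genotypes limma called 0 of the 25 in any tissue, and 1 in ventricles, 1 in atria and 0 in E13.5 hearts had an unadjusted p under 0.05.

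Of 33 known cardiac targets, a list that includes Hand2, ventricles against E13.5 hearts had 10 calls higher and 4 lower in knockouts and 11 higher and 5 lower in wild-type mice. Atria had 11 higher and 4 lower in both genotypes, with all libraries used. These are 42.4% of the 33 in knockout ventricles (2.74% of all genes), 48.5% in wild-type ventricles (5.09%), and 45.5% in knockout atria (2.8%) and wild-type atria (5.5%). Median differences were 0.85 in knockout ventricles beside -0.019 for all genes and 0.51 in wild-type ventricles beside 0.000. In atria they were 0.58 beside 0.039 in knockouts and 0.22 beside 0.092 in wild-type mice. Ryr2, the calcium release channel, Atp2a2, the calcium pump, and Tnni3, the adult troponin I, rose in all 4 comparisons: Atp2a2, for example, by 1.78 and 2.15 in knockout and wild-type ventricles and by 1.32 and 2.01 in knockout and wild-type atria. The atrial light chain Myl7 rose in atria by 2.25 in knockouts and 1.88 in wild-type mice and fell in ventricles by 2.70 and 3.30. Within pups, 8 of the 33 were called between the chambers in knockouts (24.2%, beside 0.199% of all genes). In wild-type pups 4 were called (12.1%, beside 0.0883%). Ventricles were below atria in both genotypes for Myl7, Myl4, Bmp10 and Nppa, which are atrial genes, as Tbx5 was. Myl3 and Myl2, ventricular markers on the list, went the other way. Myl3 differed by 3.87 in knockouts (adjusted p = 0.0347) and 3.53 in wild-type pups (adjusted p = 0.0670), and Myl2 by 9.20 and 7.89. Between genotypes 1 target was called, Nppb, the B-type natriuretic peptide, which rose by 3.44 in knockout atria (adjusted p = 0.00656).

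For the 5 factors called in any stage or chamber comparison, the genes with the most similar profile over the 20 libraries were named by the root mean square difference of centred log2 signals, as a description. The candidates were the genes at or above the median level of those tested. For Tbx5 they were Dkk3 (0.544) and Npr3 (0.548), where the SD of Tbx5 itself was 1.23. For Hand2 they were Slbp (0.333) and Uba2 (0.355), beside an SD of 0.580, and for Mef2a Sptbn1 (0.269) and Tmod3 (0.282), beside 0.482. Hand1 was nearest to Cdkn1c (0.670) and Tnnt1 (0.872), beside an SD of 1.80. Isl1 had no close profile, with Cdkn1c at 1.66 and Acvr1c at 1.70 beside its SD of 2.93. All of these differences share the same 20 libraries and their depths.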

How the data were processed

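Hearts, atria and ventricles of Creld1 knockout and wild-type mice were profiled by SMART-Seq2 after RNeasy Micro extraction, per the labels' protocols. Build mm10 and the tools STAR 2.5.1, bcl2fastq 2.2 and DESeq2 are listed in the submitters' processing notes, which give them no role. The deposited table holds 1 normalised signal per gene and library, scaled by the authors. No source used here gives the counting rule or its strand. Of a library's low values above 0, which were the ones checked, only 47.0% to 65.8% came out whole in estimated reads. For these reasons no count test was run and depths are estimates. Groups, litters and pups came from the labels, which give no sex.

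From these values, log2(signal + 1) was computed for the 18125 genes with a signal of at least 10 in at least 3 libraries, and limma 3.58.1 in R 4.3.3 was fitted with 1 mean per group over all 20 libraries (14 residual degrees of freedom). Chamber contrasts used within-pup differences (4 residual degrees of freedom). Tests were two-sided, with Benjamini-Hochberg adjustment over all genes and a threshold of 0.05. The procedure was tested on simulated data. Exon lengths, positions and neighbours came from GENCODE M21, to which 26386 of 26440 gene identifiers matched. Promoter windows are RefSeq's, and Gata6 has none printed. All 10 factors were described, and the nearest profiles were the 2 genes with the smallest root mean square difference among genes at or above the median level. The factors, gene lists and markers were chosen with earlier results of these data known. Knockout and wild-type animals with the same number share a litter and a preparation date in the labels, so they were treated as paired in an alternative. At E13.5 the pairs numbered 2 and 3 came from the same litter, and the block took them as separate pairs. The correlation of same-numbered deviations was 0.212 to 0.638 in atria, 0.0200 to 0.0658 in ventricles and -0.0159 to 0.0159 in E13.5 hearts. The alternatives changed the pseudocount, filter, scaling, variance trend, block and libraries. P-values measure the spread between these libraries only. The fit over all 20 libraries had no term for pup or litter. The ventricles and atria of a pup, and animals of the same litter, entered it as independent libraries.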

Additional observations from a re-analysis of the deposited data

Results flagged for a closer look

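In groups of 4 libraries, 1 of the 20 gene and group combinations tested had a library far from the others. Hand2 in knockout E13.5 hearts had a signal of 300.2 in replicate 3, against 253, 246 and 254 in the other 3 hearts. The gap of that library to its nearest neighbour was 0.864 of the group's range, past the 95% limit for a group of 4. Chance flags about 1 in 20 groups.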

How the results depend on the processing

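Of 190 alternatives to the 12 counts of factors called, 162 stayed within 1.5 times the reported count and 28 moved. Ventricles minus E13.5 hearts in knockouts, with 2 factors called, had 1 with a pseudocount of 10 or without knockout pup 2, and 1 to 2 when a library was left out. The wild-type count of 4 was 1 without wild-type pup 2, 2 without the E13.5 libraries prepared in 2018, and 1 to 4 with a library left out. Atria minus E13.5 hearts had 2 to 4 factors called in wild-type mice with a library left out. The chamber count of 1 in each genotype was 0 without the filter, without the variance trend, without pup 2, without both pups numbered 3 and with any pup left out. Omitting pups leaves few degrees of freedom in these fits. For 49 single results under 776 alternatives, 56 lost the call, 3 gained it and 14 changed sign. The sign changes were those of values near 0 or tied to the third atrial pair. Gata6 in atria minus E13.5 hearts (wild-type, 0.02) was -0.19 without wild-type pup 2 and -0.11 without the 2018 libraries, and -0.19 to 0.40 with a library left out. Gata4 in knockout atria (0.23) was -0.63 without the third pair and -0.63 to 0.89 with a library left out, and Mef2a (-0.16) was 0.044 and -0.32 to 0.044. Tbx20 between the chambers of knockout pups (0.0045) was -0.20 with quantile normalisation, -0.41 without both pups numbered 3 and -0.41 to 0.24 with a pup left out. Quantile normalisation moved the median of all genes in atria minus E13.5 hearts to -0.06 in knockouts, against 0.04 before, and to -0.05 in wild-type mice, against 0.09. With the replicate block, 0 factors were called in any genotype comparison, as without it. The stage and chamber calls were not refitted with the block, so their dependence on it was not tested. The block could not be fitted for the stage comparisons, whose animals differ. The alternatives that leave out the third atrial pair or both pups numbered 3, and the chamber contrast without pups, were added after the data were seen. The depth limits low genes: 1 estimated read was worth a signal of 0.562 to 2.21, and Hand1 at P3, and Isl1 in 9 of the 12 P3 libraries, lay at 0 or near 1 read.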
